A study of Zea mays with 57 samples.

Results

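The 6 libraries described here compare shoots of maize seedlings 30 min after transfer to nitrogen medium with shoots kept for the same 30 min in KCl medium. They are 6 of the 57 libraries of a time course and were chosen by their labels alone, 3 for each medium. All seedlings were of the inbred line B73, were 10 days old, had been starved of nitrogen for 2 days and had had 2 h of light on the day of transfer. The nitrogen group received 20 mM KNO3 and 20 mM NH4NO3, with 10% of the nitrogen labelled as 15N. The KCl group received 20 mM KCl and no nitrogen. Another group, harvested at 0 min without transfer to either medium, is called the start and is used where the side of a change matters. Each replicate pooled the tissue of 3 seedlings, so its error is that between pools and not between plants. Chloride and the amount of salt added also set the media apart, and what they and nitrogen each did cannot be told apart.

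Nitrate and ammonium are taken up by roots, nitrate is reduced to nitrite and then to ammonium, and ammonium is built into amino acids through glutamine and glutamate. Nitrate is also a signal in its own right: in plants it changes the transcription of many genes within minutes. A shoot receives this signal through the root, so its early response includes what the root sends as well as nitrogen that has arrived. The question this comparison addresses is which shoot transcripts stood apart between the media at 30 min.

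Counts were read from the 3' ends of polyadenylated RNA with unique molecular identifiers. The nitrogen libraries held 1988379, 2191213 and 2277465 counts, the KCl libraries 3087320, 1389351 and 2006288, and the start libraries 2618258, 3353328 and 2831294. Levels are given as CPM, a gene's counts scaled to a common total for every library. With reads taken from transcript ends, CPM compares a gene between libraries and does not need a correction for length within a gene. In bulk shoots fewer cells of a type and less RNA per cell cannot be told apart. None of the 44146 nuclear gene IDs could be paired with a name, so nuclear genes are given by ID, with no role, and the labelled tissue was not checked against nuclear marker genes.

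Replicates were not equally alike. Nitrogen replicates 1 and 2 differed by a chi-square of 1.42 per degree of freedom over genes, whereas replicate 3 differed from replicate 1 by 4.06 and from replicate 2 by 5.82. The 3 KCl pairs lay between 1.45 and 1.56. Start replicate 3 also stood apart, at 3.98 and 4.39 from the other start libraries, which differed from each other by 1.74. Many results below are given with and without nitrogen replicate 3. The library positions, the counts by level and the values of some genes are given only with it.

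Nitrogen and KCl shoots differed in 2630 of 18412 genes tested, which is 14.3% of them, at an adjusted p under 0.05 in edgeR's quasi-likelihood test. In nitrogen 1219 genes were higher (6.62% of those tested) and 1411 lower (7.66%). A gene past this threshold is referred to as called. Most called differences were modest, with a median absolute log2 change of 0.76. Over 2-fold changes were seen in 844 called genes (4.58%), of which 292 were higher and 552 lower in nitrogen. Without nitrogen replicate 3 this excess of lower genes was not seen, with 294 genes over 2-fold, 148 higher and 146 lower. In 2516 of the 2630 called genes the 3 nitrogen values did not overlap the 3 KCl values, a separation shown by 33.7% of all genes tested. The count of called genes of any size without that library was 629, with 303 higher and 326 lower, of which 611 were among the 2630. Without KCl replicate 1, the deepest of the 6 libraries, 1207 genes were called, and DESeq2 called 1289. The split by direction moved with the scaling. With DESeq2's size factors in edgeR 993 genes were higher and 1574 lower, and with library totals alone 1059 and 1542. In DESeq2 470 were higher and 819 lower.

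**Figure D1:**
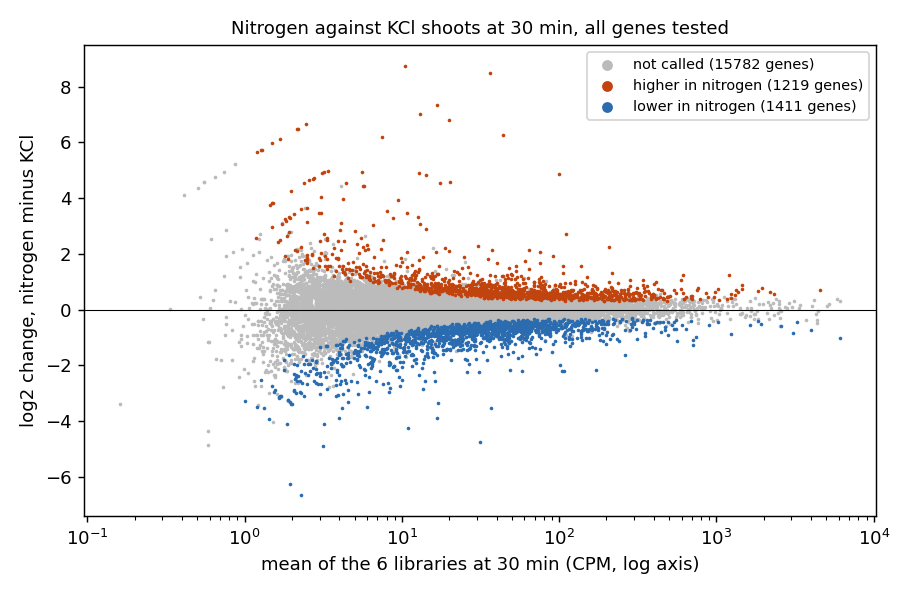
Log2 change, nitrogen minus KCl at 30 min, against the mean level of each of 18412 genes in the 6 libraries (CPM, log axis). Coloured points are the 1219 genes called higher and the 1411 called lower in nitrogen; called genes reach down to small changes at high levels and need large ones at low levels.

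The widest differences came from transcripts that were present in nitrogen shoots and at or near 0 in KCl shoots. Zm00001d026413 (chr10:145391311-145392264, plus strand, build AGPv4) stood at 22.5, 13.3 and 26.7 CPM in nitrogen and had no count in any KCl library. The start libraries held 29.9, 28 and 32 CPM. All nitrogen and start libraries therefore lay far above the KCl libraries. Set against the limit of 3 counts over the KCl group, its level was at least 44.6-fold higher in nitrogen (adjusted p = 0.00199 in edgeR, and 0.0177 without nitrogen replicate 3).

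Zm00001d041611 (chr3:129670740-129671244, plus strand) had 109.7, 61.2 and 47.4 CPM in nitrogen, against 0, 0 and 0.5 CPM in KCl. It had 91.3, 94.9 and 116 CPM at the start. The KCl value rests on 1 count among 3 libraries, so the ratio of nitrogen to KCl, 463, has a 95% counting interval from 82.6 to 18313 (adjusted p = 0.000524). At the other times, in the 23 nitrogen libraries that held enough counts, Zm00001d026413 ranged from 10.6 to 53.9 CPM, and in the 24 KCl libraries from 0 to 23.6 CPM with a median of 0.84. For Zm00001d041611 the nitrogen range was 16.5 to 155 CPM and the KCl range 0 to 70.8 CPM.

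These genes belong to a set of 20 that averaged at least 5 CPM in nitrogen and stayed under 1 CPM in every KCl library. The set was picked by those values and is a description. In 17 of the 20 every start library held at least 1 CPM, and in 12 the start mean was at least 5 CPM. Only 3 had a start mean under 1 CPM: Zm00001d018161, described below, and Zm00001d027928 and Zm00001d038718, which were singled out after their values were seen. Zm00001d027928 had 8.17, 4.6 and 4.22 CPM in nitrogen, against 0.32, 0 and 1 CPM in KCl and 0, 0.89 and 0 CPM at the start. Zm00001d038718 had 9.7, 7.36 and 15.5 CPM in nitrogen, against 0.32, 0.73 and 0 CPM in KCl. The opposite pattern, at least 5 CPM on average in KCl and under 1 CPM in every nitrogen library, was met by 5 genes, and in all 5 the highest start value was that of replicate 3.

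Among genes lower in nitrogen, Zm00001d024518 (chr10:75760691-75762808, plus strand) had 0.51, 2.3 and 0.469 CPM in nitrogen, against 29.8, 15.4 and 17.5 CPM in KCl. Its log2 change was -4.23 (SE 0.85, adjusted p = 0.000707). The start libraries were split: replicates 1 and 2 held 0 and 1.49 CPM, near the nitrogen level, and replicate 3 held 27.8 CPM, within the KCl range.

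Zm00001d002094 (chr2:5872428-5873039, plus strand), a target in the authors' network table, showed the same split. It had 3.06, 3.22 and 0 CPM in nitrogen and 32.7, 25.6 and 35.5 CPM in KCl, a log2 change of -3.90 (SE 0.75, adjusted p = 0.000441). At the start it had 5.05, 5.95 and 32.4 CPM. Start replicate 3 again sat with the KCl libraries and the other start libraries with nitrogen. Zm00001d024853 (chr10:90664003-90665073, plus strand), another target, had 3.57, 4.6 and 0.938 CPM in nitrogen, against 29.8, 27.8 and 35.5 CPM in KCl, and 1.55, 5.95 and 24 CPM at the start (log2 change -3.34, SE 0.58, adjusted p = 0.000134). These 3 genes stayed called without nitrogen replicate 3, with adjusted p-values of 0.0134, 0.0120 and 0.00565.

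Abundant transcripts moved less. Among genes averaging at least 500 CPM, Zm00001d020910 (chr7:136264881-136266357) led those higher in nitrogen, with 1515, 1363 and 2196 CPM, against 636, 639 and 851 CPM in KCl. Its log2 change was 1.25 (SE 0.19, adjusted p = 2.74e-05), and the start level was 1278 ± 202 CPM (SD, n = 3). Zm00001d006010 (chr2:195228750-195230170) had 857, 728 and 973 CPM in nitrogen, against 312, 348 and 435 CPM in KCl (log2 change 1.22, SE 0.21, adjusted p = 0.000134). In both genes every nitrogen library was above every KCl library.

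In the other direction, Zm00001d042050 (chr3:148701826-148704925) had 432, 542 and 279 CPM in nitrogen and 1059, 1053 and 889.7 CPM in KCl, a log2 change of -1.26 (SE 0.20, adjusted p = 3.75e-05). Zm00001d001820 (chr2:1439871-1441447) had 379.7, 445 and 233 CPM in nitrogen and 803, 775 and 756 CPM in KCl, a change of -1.14 (SE 0.21, adjusted p = 0.000343). The lowest value of each was that of nitrogen replicate 3. Without that library the changes were -1.04 and -0.92, and both genes stayed called in edgeR, with adjusted p-values of 0.00308 and 0.0145.

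How small a change could be called depended on the level. Genes under 5 CPM had a median SE of 0.538 on the log2 scale and 223 of 3008 were called. Those from 5 to 20 CPM had a median SE of 0.291, with 685 of 6699 called, and those from 20 to 100 CPM 0.181, with 1219 of 6850 called. Above 100 CPM the median SE was 0.142 and 503 of 1855 genes were called. Of these 311 were higher and 192 lower in nitrogen. At lower levels the balance was the other way, with 94 higher and 129 lower under 5 CPM. It was 256 and 429 from 5 to 20 CPM, and 558 and 661 from 20 to 100 CPM. Called shares ran from 12.8% of tested genes on chromosome 5 to 15.5% on chromosome 6.

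Where the start stood was described by placing each library on the 30 min difference, with the KCl mean at 0% and the nitrogen mean at 100%. This used log2(CPM + 1) over the called genes, so the positions of the 6 libraries at 30 min were fixed by the choice of genes and carry no test. Over the 1219 genes higher in nitrogen, start replicates 1, 2 and 3 lay at 79.7%, 74.6% and 61.4%. Over the 1411 lower genes they lay at 79.3%, 69.3% and 20.5%. Start replicate 1 was nearer to the nitrogen mean than to the KCl mean in 1047 of the higher genes and 1139 of the lower ones. Start replicate 3 was nearer to nitrogen in 563 and 359. Nitrogen replicates 1, 2 and 3 lay at 97.8%, 89.1% and 113% over the higher genes, and at 90.2%, 74.8% and 135% over the lower ones. Replicate 3 thus lay beyond its own group mean. Over the lower genes start replicate 1 lay nearer to 100% than nitrogen replicate 2. Positions were not computed without nitrogen replicate 3.

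**Figure D2:**
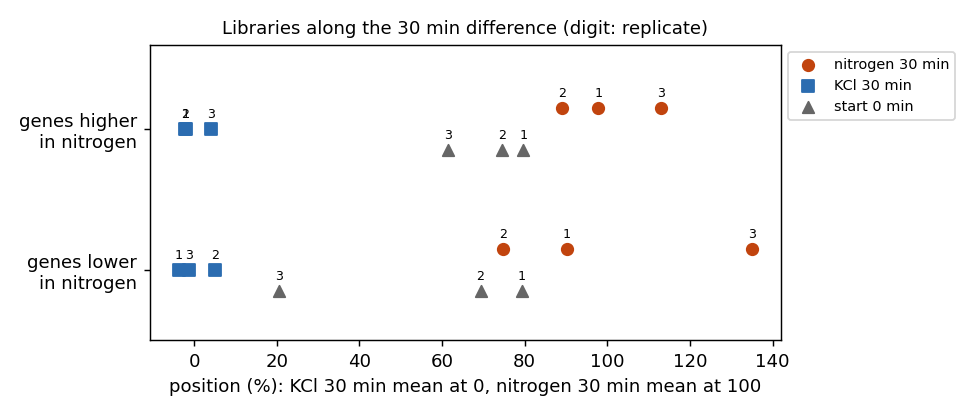
Position of each library between the KCl 30 min mean (0%) and the nitrogen 30 min mean (100%), over the 1219 genes called higher and the 1411 called lower in nitrogen; digits are replicate numbers. Start replicates 1 and 2 lie between 69.3% and 79.7%, and start replicate 3 at 61.4% and 20.5%. Nitrogen replicates 1 and 2 lie between 74.8% and 97.8%, and nitrogen replicate 3 beyond 100%.

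The contrasts with the start address which medium had moved. Both use the same 3 start libraries, so they are given side by side and not compared with each other. Nitrogen shoots at 30 min differed from the start in 42 genes (0.228% of those tested), 38 of them higher (0.206%) and 4 lower (0.0217%). KCl shoots at 30 min differed from the start in 575 genes (3.12%), 274 higher (1.49%) and 301 lower (1.63%). The 42 genes all had values that did not overlap between nitrogen and the start, as did 13.5% of all genes tested. For KCl against the start this held for 557 of the 575, beside 24.7% of all genes tested. The transfer itself and the time of day separate both media from the start. The count for KCl moved with single libraries: it was 134, 274 and 288 without KCl replicates 1, 2 and 3, and 145, 205 and 1030 without start replicates 1, 2 and 3. DESeq2 called 235. Without start replicate 3 the KCl calls were 618 higher and 412 lower. For nitrogen the count was 30 without nitrogen replicate 3 and 31 without start replicate 3, and DESeq2 called 32. The balance of the nitrogen calls turned under 2 settings: with no filter 99 genes were higher and 175 lower, and with the first axis of within-group variation as a covariate 106 were higher and 190 lower.

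Among genes averaging at least 5 CPM, those that rose most over the start in nitrogen had little or no signal before transfer. They were picked by the size of that rise, so the low start level follows in part from the choice. Zm00001d021208 (chr7:146038525-146039307, minus strand), a network regulator, had 25.5, 33.6 and 38.5 CPM in nitrogen at 30 min, against 0, 0.297 and 0.348 CPM at the start. Its log2 change over the start was 6.89 (SE 0.84, adjusted p = 1.44e-07). In KCl it had 9.39, 6.59 and 5.99 CPM, also above the start, by 4.80 (SE 1.09, adjusted p = 0.00832), and below nitrogen. The log2 change between media was 2.09 (SE 0.50, adjusted p = 0.00371, and 0.0352 without nitrogen replicate 3). Zm00001d021208 thus rose in both media and stood higher in nitrogen at 30 min. At the other times its highest KCl library held 45.8 CPM and its highest nitrogen library 30 CPM.

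Zm00001d018161 (chr5:215727084-215730071, minus strand), a network target, was raised in nitrogen and not detectably in KCl. It had 23, 15.6 and 39.9 CPM in nitrogen, 0.324, 0 and 0 CPM in KCl and 0.777, 0.297 and 0.348 CPM at the start. Against the start its log2 change in nitrogen was 5.70 (SE 0.60, adjusted p = 4.98e-09). Against KCl the counts, 164 in nitrogen and 1 in KCl, give a ratio of 169 with a 95% counting interval from 29.9 to 6714 (adjusted p = 3.13e-08). Its nitrogen level was 8.5 ± 0.38 CPM at 20 min, 26.2 ± 12.4 CPM at 30 min and 76.6 ± 33 CPM at 45 min (SD, n = 3 each).

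Of the 4 genes lower in nitrogen than at the start, Zm00001d020725 (chr7:130286350-130287261, minus strand) had 2.55, 3.68 and 2.81 CPM in nitrogen, 12.3, 7.32 and 8.99 CPM in KCl and 8.16, 6.25 and 12.9 CPM at the start, so all nitrogen values lay below the others. Its log2 change was -1.56 against the start (SE 0.33, adjusted p = 0.0115) and -1.70 against KCl (SE 0.34, adjusted p = 0.000753). The call against the start was lost in 4 of 15 alternatives, with an adjusted p of 0.142 without nitrogen replicate 3, and that against KCl in none of 17. Zm00001d009497 (chr8:67367442-67373571, plus strand) averaged 10.7 ± 0.882 CPM in nitrogen, 17.4 ± 3.81 CPM in KCl and 21.5 ± 2.98 CPM at the start. It changed by -1.01 against the start (SE 0.20, adjusted p = 0.00514), a call also lost in 4 of 15 alternatives. Its adjusted p-values without nitrogen replicate 3 were 0.0798 against the start and 0.134 between the media, where it was 0.0304 with all libraries.

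Among genes averaging at least 5 CPM over the KCl and start libraries, the strongest rise in KCl was that of Zm00001d053746 (chr4:240330758-240332367, plus strand), a network target, by 3.02 on the log2 scale (SE 0.54, adjusted p = 0.000763). It had 1.53, 7.82 and 1.88 CPM in nitrogen, 11.3, 12.4 and 10.5 CPM in KCl and 1.17, 1.78 and 1.04 CPM at the start. All KCl values were above all others, and nitrogen replicate 2 was well above its own group. Between the media it changed by -1.56 (adjusted p = 0.0223, and 0.172 without nitrogen replicate 3). Zm00001d024522 (chr10:75943680-75945921, plus strand) had 12.8, 34.1 and 14.5 CPM in nitrogen, 66.4, 127 and 95.9 CPM in KCl and 14.4, 17.5 and 3.83 CPM at the start. KCl exceeded the start by 2.96 (SE 0.51, adjusted p = 0.000539). The strongest falls among them were those of Zm00001d026413 and Zm00001d041611, whose values are given above.

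The authors' network table names 203 regulators and 2529 further targets, all of which passed the filter on low counts. No source used here says how those genes were chosen, and if it was on these samples their counts are not independent evidence. Of the 203 regulators, 47 were higher and 28 lower in nitrogen, together 36.9%. Of the other targets, 381 were higher and 575 lower, together 37.8%. Among the 15680 tested genes with no place in it, 10.2% were called, and 14.3% over all genes. The median log2 change was 0.12 in the regulators and -0.07 in the other targets, beside 0.02 over all genes. Without nitrogen replicate 3 the counts were 22 higher and 10 lower for regulators, and 138 higher and 166 lower for other targets.

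The called regulators covered a wide range of sizes. The 47 higher ones had log2 changes from 0.39 to 4.56 with a median of 1.04, and the 28 lower ones from -3.48 to -0.34 with a median of -0.89. Of the 20 regulators with the most pairs above a weight of 0 in the network table, 5 were higher and 3 lower, together 40%, beside 14.3% of all genes. It was 1 higher and 2 lower without nitrogen replicate 3, and 0 higher and 2 lower without KCl replicate 1. With DESeq2's size factors in edgeR, or with library totals alone, 2 of those 20 were higher and 4 lower. Against the start, 14 of the 203 regulators were higher and none lower in nitrogen at 30 min, 6.9% of them beside 0.228% of all genes. In KCl 18 were higher and 8 lower, 12.8% beside 3.12% of all genes.

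Zm00001d018742 (chr7:3845026-3851209, plus strand) led the regulators higher in nitrogen, with 33.7, 25.8 and 42.2 CPM, against 1.62, 0.732 and 1.5 CPM in KCl and 36.5, 33.9 and 25.4 CPM at the start. Its log2 change between the media was 4.56 (SE 0.71, adjusted p = 2.74e-05). The nitrogen and start values overlapped and the KCl values lay far below both. Zm00001d035439 (chr6:25561769-25573225, plus strand) had 12.8, 8.28 and 11.7 CPM in nitrogen, against 0.648, 0 and 0.5 CPM in KCl, and 8.16, 12.2 and 10.4 CPM at the start. Its 68 counts in nitrogen and 3 in KCl give a ratio of 23.4 with a 95% counting interval from 7.66 to 116 (adjusted p = 2.87e-05). Both regulators were lower in KCl than at the start, with log2 changes of -4.47 and -4.35 (adjusted p = 0.000187 each). In nitrogen they differed from the start by 0.09 and 0.07, within the SEs of 0.40 and 0.37.

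Among the lower regulators, Zm00001d028974 (chr1:53368438-53370381, plus strand) had 0.51, 0.92 and 1.41 CPM in nitrogen, against 12, 10.2 and 11 CPM in KCl, and 0.777, 2.68 and 6.26 CPM at the start (log2 change -3.48, SE 0.70, adjusted p = 0.000718). It was called higher in KCl than at the start, by 1.76 (SE 0.51, adjusted p = 0.0428). Zm00001d035907 (chr6:59432425-59435437, plus strand) had 6.64, 6.44 and 1.41 CPM in nitrogen, against 36, 27.8 and 19.5 CPM in KCl, and 7.38, 6.25 and 23 CPM at the start (log2 change -2.55, SE 0.48, adjusted p = 0.000413). Without nitrogen replicate 3 the change of Zm00001d035907 was -2.11 (adjusted p = 0.0132 in edgeR). Start replicate 3 was the highest start library for both.

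The plastid genome encodes part of the photosynthetic machinery and of the plastid's own gene expression apparatus. Library priming needs a poly(A) tail, which many organelle transcripts lack, and whether these counts follow transcript amounts was not tested. Plastid models took 0.239% ± 0.0363 of counts in nitrogen and 0.370% ± 0.0654 in KCl (SD, n = 3 each), with no overlap between the groups. The exact two-sided permutation test gave p = 0.1, the smallest it can give with 3 against 3. Start replicates 1 and 2 held 0.176% and 0.194%, below both media, and replicate 3 held 0.419%.

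Of 74 plastid models 7 passed the filter, and 2 were called, both lower in nitrogen; this is 28.6% of the 7, beside 7.66% of all genes called lower and 14.3% called in all. The median log2 change of the 7 was -0.59. The model ndhD, for a subunit of the chloroplast NDH complex, had 2.55, 4.14 and 0 CPM in nitrogen, against 68, 43.2 and 71.4 CPM in KCl. Its log2 change was -4.76 (SE 0.94, adjusted p = 0.000604). At the start it had 1.17 and 2.08 CPM in replicates 1 and 2 and 94.7 CPM in replicate 3, above every KCl library. The model spanning psbK to psbZ, genes of photosystem II, had 5.61, 3.68 and 0.938 CPM in nitrogen, against 13, 13.9 and 16 CPM in KCl (log2 change -2.06, SE 0.47, adjusted p = 0.00257). Its adjusted p was 0.0545 without nitrogen replicate 3, and that of ndhD 0.0132.

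The other plastid models did not pass the test. The intron maturase gene matK averaged 380.1 ± 31.9 CPM in nitrogen and 574 ± 60.8 CPM in KCl, without overlap (log2 change -0.59, SE 0.36, adjusted p = 0.269 in edgeR). The ribosomal protein gene rps16, the most abundant plastid model, averaged 2051 ± 499 CPM in nitrogen and 3044 ± 646 CPM in KCl, with overlap (log2 change -0.57, adjusted p = 0.368). The gene ndhA, for another NDH subunit, had a change of -0.91 with an SE of 0.64. The models spanning psaJ to clpP and psbH to petB had positive changes, 0.41 and 0.10.

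The mitochondrial genome encodes subunits of the respiratory chain, ribosomal proteins and proteins of cytochrome c maturation. Mitochondrial models took 0.458% ± 0.0367 of counts in nitrogen and 0.375% ± 0.0251 in KCl (SD, n = 3 each), again with no overlap and p = 0.1 in the exact permutation test, the smallest it can give. The start held 0.474% ± 0.0544. Of 144 mitochondrial models 21 passed the filter and 20 of these had a positive log2 change, with a median of 0.73. Over all genes 9432 of 18412 were positive, with a median of 0.02. In 15 of the 21 all nitrogen libraries lay above all KCl libraries, and 33.7% of all genes tested showed a separation in either direction. The 3 that were called, 14.3% of those tested, were all higher in nitrogen. Over all genes 6.62% were called higher and 14.3% called in all.

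The called mitochondrial models were mat-r, the open reading frame orf140-b and a model overlapping cox2, the last 2 being outside the rule for named genes. The maturase gene mat-r had 59.7, 45.1 and 57.2 CPM in nitrogen, against 20.1, 24.2 and 27.5 CPM in KCl, and 40, 51.8 and 45.9 CPM at the start. Its log2 change was 1.19 (SE 0.38, adjusted p = 0.0268), and its call was lost in 7 of the 17 alternatives tried. The orf140-b model averaged 59.3 ± 9.93 CPM in nitrogen and 26.8 ± 5.26 CPM in KCl (adjusted p = 0.00469 in edgeR). The model overlapping cox2, which encodes a subunit of cytochrome c oxidase, averaged 81.2 ± 21.9 CPM in nitrogen and 37.3 ± 3.65 CPM in KCl (adjusted p = 0.0336). None of the mitochondrial models was called without nitrogen replicate 3 or without KCl replicate 1. With DESeq2, without KCl replicate 3 or with the 6 libraries thinned to equal depth, 1 was called. The count reached 11 with no filter and 9 in the fit of the 6 libraries alone.

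Named mitochondrial models that were not called had smaller changes. The ribosomal protein genes rps7 and rps12 had log2 changes of 0.85 (SE 0.38) and 0.71 (SE 0.30), with adjusted p-values of 0.128 and 0.103 in edgeR. The cytochrome c maturation gene ccmB changed by 0.83 (SE 0.60) at 4.47 ± 0.664 CPM in nitrogen and 2.58 ± 1.08 CPM in KCl. The respiratory genes atp4, nad3, cox3 and nad4 had changes of 0.53, 0.52, 0.51 and 0.32, and ccmC one of 0.23.

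**Figure D3:**
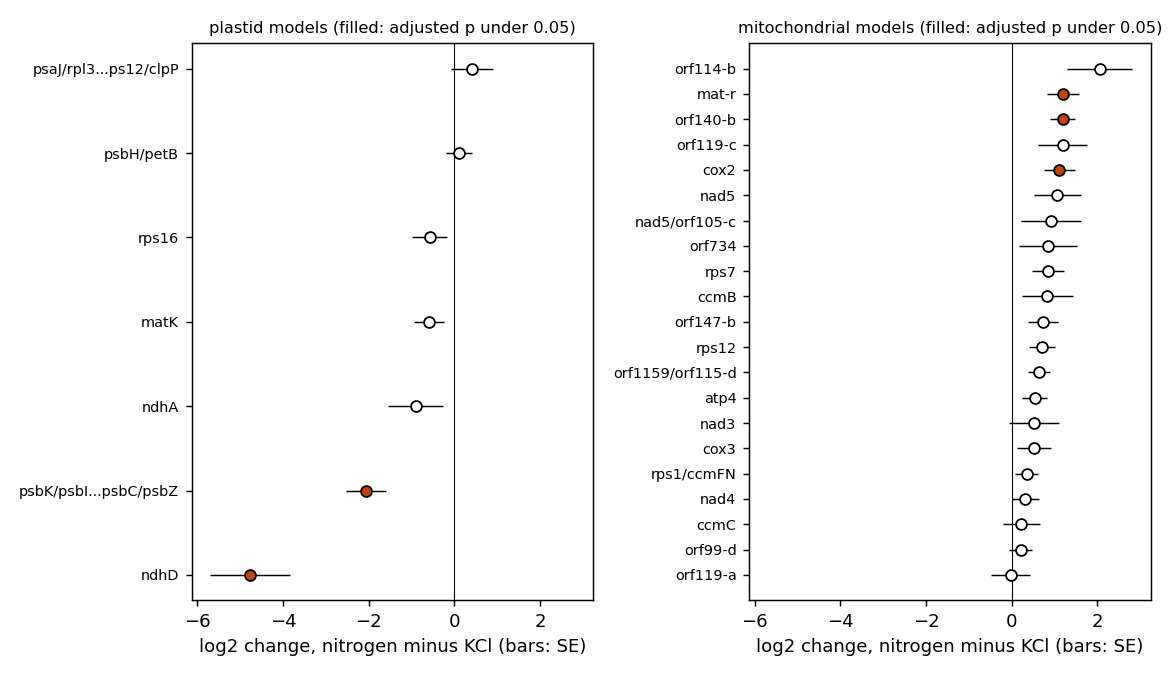
Log2 change, nitrogen minus KCl at 30 min, with its SE, of the 7 plastid and 21 mitochondrial models tested, labelled by the gene each bears or overlaps (long names shortened). Filled points had an adjusted p under 0.05: ndhD and the psbK to psbZ model below 0, and mat-r, orf140-b and the model overlapping cox2 above 0.

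None of 154 microRNA IDs passed the filter on low counts, and mature microRNAs carry no poly(A) tail. Of 138 other non-coding RNA genes tested 3 were higher and 2 lower in nitrogen, together 3.62%, beside 14.3% of all genes. With nitrogen replicate 3 left out, 1 was higher and none lower. The median log2 change of the 138 was 0.39, with 92 positive and 46 negative, beside a median of 0.02 over all genes. Of the 138, 133 were not called.

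Whether the difference between the media at 30 min was particular to that time was tested against the other times in the same fit. Relative to the mean difference of the other 8 times, 4 genes were called, which is 0.0217% of those tested, all with a larger difference at 30 min. At an unadjusted p under 0.05 there were 714. The 4 calls rested on single libraries and on the tool: leaving out any 1 of the 6 libraries left between 0 and 2, and DESeq2 and limma on the authors' normalized table called 0. Against 20 min no gene was called in edgeR (1169 at an unadjusted p under 0.05, 0 in DESeq2 and 0 in limma). Against 45 min no gene was called either (571 at an unadjusted p under 0.05, 0 in DESeq2 and 0 in limma).

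Zm00001d019207 (chr7:21927733-21929407, plus strand), a network regulator, had the largest of these 4 differences. At 30 min it had 104, 109.5 and 154 CPM in nitrogen, against 28.8, 31.5 and 28 CPM in KCl, and 29.5, 21.1 and 37.2 CPM at the start. The nitrogen values were all above the others, and the KCl and start values overlapped. Its log2 change between the media was 2.06 (SE 0.25, adjusted p = 9.12e-08), and exceeded the mean of the other times by 1.39 (SE 0.26, adjusted p = 0.0424). In nitrogen it averaged 82.5 ± 8.93 CPM at 20 min, 122 ± 27.4 CPM at 30 min and 84.2 ± 27 CPM at 45 min (SD, n = 3 each). In KCl it averaged 56.8 ± 14.3 CPM at 20 min, 29.4 ± 1.83 CPM at 30 min and 21.2 ± 2.06 CPM at 45 min.

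Zm00001d034160 (chr1:285335178-285337132, plus strand), also a network regulator, had 89.8, 125 and 99.4 CPM in nitrogen, against 21.4, 25.6 and 25.5 CPM in KCl, and 28, 25.9 and 25.8 CPM at the start. Its change between the media was 2.13 (SE 0.22, adjusted p = 3.28e-09) and exceeded the mean of the other times by 1.16 (SE 0.24, adjusted p = 0.0467). In nitrogen its mean was highest at 30 min among the times measured, with 87.5 ± 8.05 CPM at 20 min, 105 ± 18 CPM at 30 min and 84.8 ± 12.3 CPM at 45 min. Without nitrogen replicate 3 the adjusted p of the excess over other times was 0.417 for Zm00001d019207 and 0.386 for Zm00001d034160, while both stayed called between the media at 30 min.

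**Figure D4:**
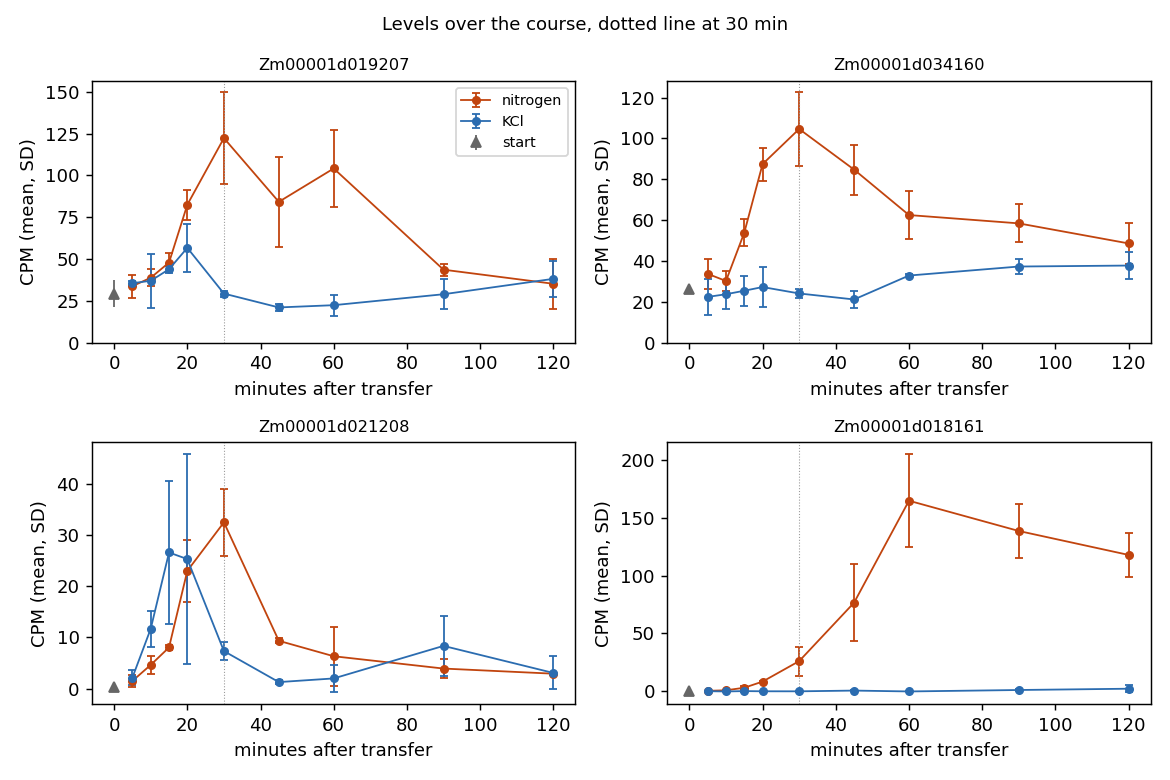
Level over the course (CPM, mean with SD; n = 3, and 2 for nitrogen at 120 min, where the library with few counts is left out) of 4 genes in nitrogen and KCl, with the start at 0 min and a dotted line at 30 min. Zm00001d019207 and Zm00001d034160 have their highest nitrogen means, 122 and 105 CPM, at 30 min, Zm00001d021208 has its highest mean at 30 min in nitrogen and at 15 min in KCl, and Zm00001d018161 goes on to 165 CPM at 60 min in nitrogen.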

How the data were processed

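Gene counts were deposited by the authors as whole numbers, not normalized. The submitters' processing notes list the aligner STAR 2.7.6a, the counter featureCounts 2.0.1, and fastp 0.21.0 and UMI-tools 1.1.1. Per the file headers featureCounts was 1.5.1, run on annotation release 37 of AGPv4 with no strand option, so a gene and an overlapping or antisense partner cannot be told apart. Other values, the summed exon lengths, are in the same deposited table. The authors' quantile-normalized values (55 libraries of 18370 genes, each with a total of 2522105) and their network weights were treated as scores, and no source used here says how either was made. Columns of the count table that match no labelled sample numbered 2 and were left out.

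For this comparison edgeR 4.0.16 in R 4.3.3 was applied to the counts. Libraries were scaled by TMM, low genes removed by filterByExpr on the 19 groups, which kept 18412 of 46335 genes, and 1 mean per group fitted to all 57 libraries, leaving 38 residual degrees of freedom. Contrasts were tested by the two-sided quasi-likelihood F test, with Benjamini-Hochberg adjustment over the genes kept. An SE was obtained from F, by dividing the size of the log2 change by its square root. DESeq2 1.42.0 on the counts and limma 3.58.1 on log2 of the deposited score plus 1 were alternatives. The fits were tested on simulated data. Counting intervals, at 95%, and the limit of 3 counts cover counting error only. The labels call the replicates separate pools of seedlings. In the fit of all 57 libraries, each p-value sets a difference against a spread between pools estimated over all 19 groups. That spread is not the one of the compared groups alone. Library totals ran from 8560, in nitrogen 120 min replicate 3, to 5684785, and the other 56 held at least 1057488.

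Reference names follow another assembly and matched 0 of 44146 nuclear IDs, so the planned lists by gene name had no members. An organelle model took a gene's name if it overlapped that protein-coding gene alone and had its start or its end. Nuclear genes were named by rule: called, a mean of at least 5 CPM, groups that do not overlap, and the 2 largest changes per direction in each contrast, in regulators, in targets and in genes averaging at least 500 CPM. The members and lists were chosen with earlier results of these data known.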

Additional observations from a re-analysis of the deposited data

Results flagged for a closer look

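The nitrogen minus KCl difference at 30 min was set against the mean difference of the other 8 times by an interaction contrast in edgeR, and 4 genes passed it, all with a larger difference at 30 min. The excess, on the log2 scale, was 1.39 for Zm00001d019207, 1.16 for Zm00001d034160, 1.04 for Zm00001d000849 and 0.97 for Zm00001d038270. Over 45 min alone it was, in the same order, 0.08 (SE 0.37), 0.14 (SE 0.33), 0.41 (SE 0.28) and 0.08 (SE 0.26). Over 20 min alone it was 1.53 (SE 0.33), 0.45 (SE 0.31), 0.60 (SE 0.27) and 1.17 (SE 0.25). None of the 4 was called against either time, so a difference particular to 30 min was not shown. The last 2 lie outside the rule for named genes and were named because their excess was called. Zm00001d000849, a network target, had 148, 159 and 168 CPM in nitrogen, against 47, 60.8 and 53.5 CPM in KCl, and its excess had an adjusted p of 0.0467. Its nitrogen level was 119 ± 9.77 CPM at 20 min, 124 ± 27.1 CPM at 45 min and 132 ± 36.8 CPM at 60 min (SD, n = 3 each). Zm00001d038270, a network regulator, had 117, 86.1 and 143 CPM in nitrogen, against 41.5, 34.4 and 32 CPM in KCl, also with an adjusted p of 0.0467. For Zm00001d038270 the nitrogen level stayed as high later, at 116 ± 20.4 CPM at 45 min and 125 ± 16.6 CPM at 60 min (SD, n = 3 each). None of the 4 was called without nitrogen replicate 3.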

How the results depend on the processing

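The count of 2630 genes between the media kept within 1.5 times under the other scalings, both filters, the fit of 6 libraries alone, thinning to 1389351 counts, the first axis of within-group variation as a covariate and limma. This holds for the total, while the split into higher and lower genes moved with the scaling, as given above. DESeq2 gave 1289, and 552 over 2-fold. Leaving out 1 of the 6 libraries gave 629 to 2930, and 294 to 1163 over 2-fold. For nitrogen against the start, no filter gave 274, that covariate 296, and leaving out 1 library 30 to 47. For KCl against the start these were 983, 1263 and 134 to 1030, and DESeq2 gave 235. The 4 calls against the other 8 times were 1 with DESeq2's size factors, 2 with library totals, 29 with no filter, 0 with DESeq2 and limma, and 0 to 2 without 1 library. Against 20 min, no filter gave 70, the covariate 1 and leaving out 1 library 0 to 1; against 45 min, no filter gave 21. The cause was not tested. For 26 of the named genes called between the media, the call was followed through all 17 alternatives. In 22 it was kept in all of them, 4 lost it in at least 1, and none reversed. Zm00001d027928, Zm00001d038718, orf140-b and the model overlapping cox2 were called but are not among the 26. No mitochondrial model was called without nitrogen replicate 3 or without KCl replicate 1. No pairing by replicate number was seen at 30 min: deviations of same-numbered libraries correlated at 0.024, 0.006 and -0.003 over genes. Counting error can hide a small shared effect there, so none is excluded. The replicate block gave 2622 calls. The plastid and mitochondrial shares kept their direction in all alternatives run, where 3 or fewer libraries a group cannot reach the threshold. Leave-one-out fits of the contrasts with other times were chosen after seeing the data. Depth limits genes under 5 CPM most, with a median SE of 0.538.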
